A study of Mus musculus with 14 samples.

Results

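The regions described here carried an H3K27ac peak in both wild-type (WT) Th1 libraries and in neither Ets1-SE-KO library. They were chosen by the peak calls themselves: peaks of the 4 H3K27ac lists that shared 1 bp or more were joined into merged regions, and a merged region was kept when both WT lists and neither KO list contributed to it. This gave 973 of 36404 merged regions on chromosomes 1 to 19 and X, or 2.67%. The window from 32 to 34 Mb of chromosome 9, which holds the Ets1 locus, was set aside with its 46 merged regions, 12 of which met the rule. The opposite class, with a peak in both KO and neither WT library, held 2585 regions and is called KO-only. The regions with a peak in all 4 libraries numbered 16027 and are called shared. The remaining 16819 regions had another combination.

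The study profiled mouse Th1 cells by CUT&RUN, in which a nuclease tethered to an antibody releases the DNA fragments next to its target. The Ets1-SE-KO mice are a C57BL/6J line named for a deletion at the Ets1 super-enhancer, and the WT mice are C57BL/6J. Naive CD4+ T cells from spleens of both genotypes were stimulated through CD3 and CD28 for 6 days with IL-12 (10 ng/mL) and IL-2 (1 ng/mL), and live cells were sorted before profiling. The 14 libraries comprise 2 KO and 2 WT libraries each for H3K27ac, CTCF and ETS1, and 1 KO and 1 WT library for the control antibody IgG. By their titles, the 2 KO libraries of an antibody are separate biological replicates, whereas the 2 WT libraries are technical replicates of 1 biological replicate. The spread between WT libraries is therefore technical, and a WT-only call cannot be told apart from a property of that single WT preparation.

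H3K27ac, acetylation of lysine 27 on histone H3, marks active promoters and enhancers. ETS1 is a transcription factor of T lymphocytes that recognises a GGAA core, and CTCF is the zinc-finger protein that anchors chromatin loops and domain borders. Th1 cells are the helper T cells that produce interferon-gamma and depend on the factor T-bet.

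The KO H3K27ac lists held 26456 and 28637 peaks covering 28 and 28.5 Mb, and the WT lists 24703 and 24573 peaks covering 21.8 and 21.3 Mb. The KO ETS1 lists differed widely, with 40705 and 9344 peaks, against 14013 and 23416 in the WT lists. The CTCF lists held 40487 and 39340 peaks in KO and 33133 and 31364 in WT. The IgG lists held 285 peaks in KO and 2 in WT, and 0 of the 973 WT-only regions carried an IgG peak. Over all merged regions, 0.657% carried a KO IgG peak and 0 a WT IgG peak, so this count says little about the WT-only regions. A gene was counted when a merged H3K27ac region lay within it or within 10 kb of it. This held for all 19 listed T cell identity genes, 24 of 27 listed Th1 genes and all 18 housekeeping genes. Among listed markers of other cell types it held for 7 of 11 B cell, 8 of 13 myeloid and 2 of 9 NK cell markers. For CD8 T cell, erythroid and non-haematopoietic markers the counts were 2 of 4, 3 of 8 and 3 of 14. Of all 21627 protein-coding genes, 13274 had such a region, a share close to those of the B cell and myeloid lists. Sequencing depth cannot be read from these lists, which hold no counts.

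Of the WT-only regions, 51 overlapped a RefSeq promoter window on GRCm38.p6, which runs from 250 bases before to 50 after a gene start. These windows numbered 53, from 51 genes. The 250 bases before the start are shown for 5 of them, because they place WT-only calls directly at the start of named genes. Prf1 encodes perforin, the pore-forming protein of cytotoxic granules. Havcr2 encodes the inhibitory receptor TIM-3 of Th1 cells. Cxcr2 encodes a chemokine receptor best known from neutrophils, and Cox19 a factor for assembly of cytochrome c oxidase. Igsf23 stands for the best-ranked WT-only region that also had an ETS1 peak in both WT and neither KO library. Capitals mark the ETS core GGAAG and the RUNX motif TGTGGT on either strand (CTTCC and ACCACA as read here), as letter matches and not as bound sites.
Prf1, chr10:61297586-61297835 (plus strand): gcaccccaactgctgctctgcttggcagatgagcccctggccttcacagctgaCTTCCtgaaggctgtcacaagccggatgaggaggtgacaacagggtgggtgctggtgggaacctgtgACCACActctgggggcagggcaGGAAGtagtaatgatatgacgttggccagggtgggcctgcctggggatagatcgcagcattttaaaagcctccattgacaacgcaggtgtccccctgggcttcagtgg
Havcr2, chr11:46454681-46454930 (plus strand): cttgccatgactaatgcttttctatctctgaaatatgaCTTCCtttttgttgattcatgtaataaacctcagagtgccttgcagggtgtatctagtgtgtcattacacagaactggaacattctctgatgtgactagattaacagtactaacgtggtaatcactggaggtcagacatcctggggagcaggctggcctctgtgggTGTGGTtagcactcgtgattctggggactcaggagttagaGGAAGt
Cxcr2, chr1:74153744-74153993 (plus strand): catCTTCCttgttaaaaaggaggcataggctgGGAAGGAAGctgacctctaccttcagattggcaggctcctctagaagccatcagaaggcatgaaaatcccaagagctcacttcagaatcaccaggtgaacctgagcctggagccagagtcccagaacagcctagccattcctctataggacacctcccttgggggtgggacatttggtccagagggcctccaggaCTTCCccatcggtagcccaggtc
Cox19, chr5:139345167-139345416 (minus strand): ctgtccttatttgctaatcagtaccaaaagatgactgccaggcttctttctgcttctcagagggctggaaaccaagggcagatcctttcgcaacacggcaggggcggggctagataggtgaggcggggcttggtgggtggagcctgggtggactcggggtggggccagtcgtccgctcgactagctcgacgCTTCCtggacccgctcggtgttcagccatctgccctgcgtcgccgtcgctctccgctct
Igsf23, chr7:19950744-19950993 (minus strand): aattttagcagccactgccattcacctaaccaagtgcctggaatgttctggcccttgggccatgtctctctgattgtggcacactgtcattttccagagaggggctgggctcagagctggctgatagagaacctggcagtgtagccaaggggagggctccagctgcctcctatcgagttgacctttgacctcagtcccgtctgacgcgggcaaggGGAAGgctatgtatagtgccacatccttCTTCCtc
In the stretches shown, Prf1 and Havcr2 each held 2 ETS cores and 1 RUNX match, Cxcr2 held 4 ETS cores, Igsf23 held 2 and Cox19 held 1. The WT-only region at Prf1 carried an ETS1 peak in KO replicate 1 alone. Those at Havcr2 and Cxcr2 carried no ETS1 peak in any library. Letters beyond the promoter windows were not read, since no genome of this build was used.

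The WT-only regions were weak and narrow peaks in the libraries that defined them. Their median width was 458 bp (range 147 to 3591 bp), against 576 bp for KO-only and 1258 bp for shared regions. The fold enrichment given by the authors' peak caller had a median of 3.45 in WT replicate 1 and 3.48 in WT replicate 2, against 4.01 in both replicates for shared regions. The caller's −log10 q had medians of 1.35 and 1.3 in the WT-only regions, against 3.14 and 3.04 in the shared ones. These values chose the regions and are given as description only. Ranked within its list, the weaker WT peak fell below the list's median for 904 regions (92.9%) and within the top 25% for 5 regions. KO-only regions showed nearly the same placement, with 2411 of 2585 (93.3%) below the median and 4 within the top 25%.

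Just outside the rule stood 1258 regions with a peak in both WT and 1 of the KO libraries. Their median −log10 q was 1.37 in that KO library and 1.16 in the weaker WT library, against 1.1 in the weaker WT library for the WT-only regions. Another 3864 regions had a peak in 1 WT library and no KO library, with a median of 1.06 in that library, against 1.58 in the stronger library of the WT-only regions. The values inside and outside the rule thus overlapped. When WT peaks were required to reach a −log10 q of 5 and all KO peaks were kept, 0 regions met the rule. When the same threshold was applied to all 4 lists, 52 regions met it, and 0 of the 973 were among them. Leaving out KO replicate 1 gave 1474 regions, leaving out KO replicate 2 gave 1780, leaving out WT replicate 1 gave 2881 and leaving out WT replicate 2 gave 3052.

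**Figure D1:**
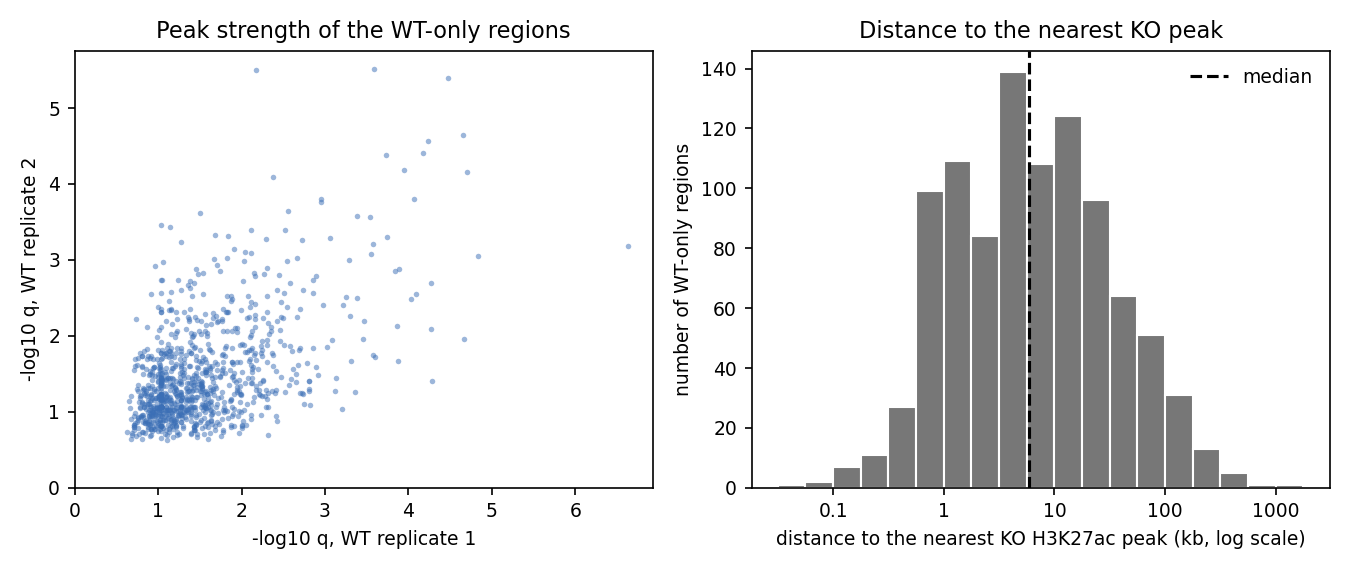
Left, the authors' −log10 q of each of the 973 WT-only regions in WT replicate 1 (horizontal) and WT replicate 2 (vertical); each point is a region, and most lie at low values, with medians of 1.35 and 1.3. Right, the number of regions by distance to the nearest KO H3K27ac peak in kb on a log scale, with the median of 5844 bp dashed.

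The best-ranked WT-only region lay inside Tnrc6c, a gene of the GW182 family that silences microRNA targets, at chr11:117736371-117736576. Its −log10 q was 4.65 in both WT libraries, and the nearest KO peak stood 11377 bp away. The second lay in Brf1, a subunit of the RNA polymerase III factor TFIIIB, at chr12:112959371-112959982, with 4.47 and 5.39. The third lay in Iqsec1, an exchange factor for ARF GTPases, at chr6:90756200-90757708, with 4.7 and 4.16. A region 54149 bp from Lrpprc and a region in Babam2 followed, the second with its nearest KO peak 39592 bp away. Regions inside the transcription factor genes Runx1 and Irf2 ranked 7 and 8. At Runx1, chr16:92801586-92802093, −log10 q was 4.07 and 3.8. At Irf2, chr8:46781444-46782070, it was 3.73 and 4.38. Each of these 7 regions stayed between 20.7% and 27.8% from the top of its weaker WT list, so even the strongest were not among the strongest peaks of the libraries.

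The widest WT-only region measured 3591 bp and lay in Cyrib, at chr15:64047081-64050671. The second, of 2758 bp at chr6:127991520-127994277, lay in Tspan9, a tetraspanin gene, with the nearest KO peak 206214 bp away. Over Tspan9 with 10 kb on each side, the KO libraries covered 0 and 0 kb and the WT libraries 4.54 and 3.77 kb. Regions of 2513 bp in Dusp7, 2317 bp in Igsf23 and 2258 bp in Entpd1 followed. Entpd1 encodes CD39, an ectonucleotidase of activated and regulatory T cells, and its region at chr19:40686102-40688359 had a KO peak 666 bp away.

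WT-only regions lay mostly inside genes and away from gene ends, as did KO-only regions and those of other combinations. A region was placed by its midpoint against 21627 protein-coding genes. The midpoint was within 2 kb of a gene end for 117 regions (12%, exact 95% binomial interval 10 to 14.2%, covering counting error only), elsewhere in a gene for 623 (64%) and between genes for 233 (23.9%). The share elsewhere in a gene was 60.5% for KO-only, 35.7% for shared, 65.8% for other combinations and 52.1% for all merged regions. The share at gene ends was 17.9% for KO-only, 50.5% for shared, 17.1% for other combinations and 31.7% for all merged regions. The WT-only share at gene ends was lower than that of shared regions at every width class. Among regions under 300 bp, 34 of 263 WT-only regions (12.9%) lay at a gene end, against 114 of 496 KO-only (23%) and 95 of 258 shared regions (36.8%). Among regions of 1000 bp or more the shares were 18.8% for WT-only, 12.7% for KO-only and 49.6% for shared regions. These shares use the same peak calls as the rule and carry no test. A promoter window was overlapped by 5.24% of WT-only regions, 7.5% of KO-only and 43.9% of shared regions.

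**Figure D2:**
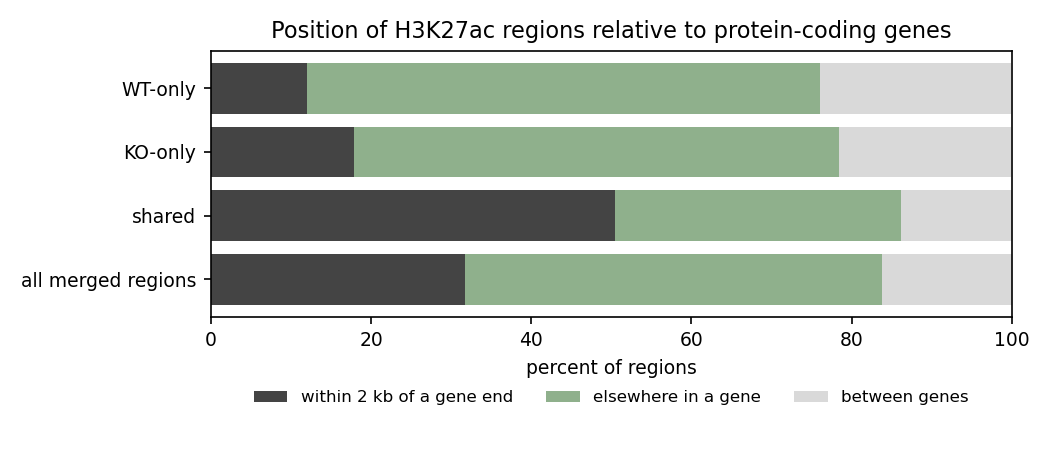
Percent of H3K27ac regions within 2 kb of a protein-coding gene end, elsewhere in a gene and between genes, for WT-only, KO-only, shared and all merged regions. The dark bar at gene ends is 12% for WT-only regions and 50.5% for shared regions.

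Besides Cox19, the best-ranked WT-only regions at a gene end lay at Prf1, Klf13 and the neighbouring E030018B13Rik, Cabp1, Cxcr2, Naa40, B430306N03Rik, Rasgrp2, Tm6sf1 and Golgb1. At Prf1 the region chr10:61297371-61298337 held the whole promoter window and had a fold enrichment of 4.33 and 4.84 in the WT libraries. The nearest KO peak was 11786 bp away, and over Prf1 with its flanks the KO libraries covered 0 and 0 kb against 0.903 and 0.661 kb in WT. At Havcr2 the region chr11:46454563-46454999 also held the whole window, with −log10 q of 1.68 and 0.757. The second of these values was among the lowest of its list, at a rank of 97.9%. Havcr2 with its flanks had 0 and 0 kb in KO and 0.374 and 0.398 kb in WT. At Cxcr2 the region chr1:74153456-74154106 had −log10 q of 2.35 and 2.07, and a KO peak lay 1174 bp away. The region at Cox19, chr5:139344989-139345326, had a KO H3K27ac peak 572 bp away and carried ETS1 and CTCF peaks in all 4 libraries of each antibody.

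The promoter windows under WT-only regions had a median GC content of 57.3% and a median of 8 CpG, against 62.3% and 23 for 9737 windows under shared regions and 53% and 7 for all 32619 windows. Motifs were searched as letters on both strands. GGAAG occurred in 88.7% of the 53 windows (75.9% of 232 KO-only, 77.5% of shared, 71.3% of all windows). CCGGAAG, which contains it, occurred in 7.55% (15.1% of KO-only, 21.9% of shared, 8.92% of all). TGTGGT occurred in 26.4% (14.2% of KO-only, 11.8% of shared, 16.6% of all). TGANTCA, the AP-1 motif, occurred in 7.55% (6.9% of KO-only, 4.23% of shared, 7.85% of all). GGGCGG, the GC box, occurred in 50.9% (62.1% of KO-only, 68.8% of shared, 35.9% of all). The windows are few and unequal in base composition between classes, and these shares carry no test. The hairpin of the microRNA gene Mir6908 on chromosome 10 also lay inside a WT-only region.

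A KO peak was often near a WT-only region. The nearest KO H3K27ac peak stood at a median of 5844 bp (range 49 to 1123352 bp), within 1 kb for 147 regions (15.1%) and within 5 kb for 443 (45.5%). For 114 regions (11.7%) no KO peak lay within 50 kb. KO-only regions had a median of 4537 bp to the nearest WT peak. The nearest shared region stood at a median of 12926 bp from WT-only and 7863 bp from KO-only regions. The most remote WT-only region, chr3:156410224-156410681, lay 151108 bp from Negr1 and 1123352 bp from any KO peak, with −log10 q of 1.5 and 1.28.

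ETS1 peaks provided a measure from separate libraries. They were found in 182 (18.7%) and 34 (3.49%) of the WT-only regions in KO replicates 1 and 2, and in 86 (8.84%) and 230 (23.6%) in WT replicates 1 and 2. The genotypes overlapped, with a mean of 11.1 ± 10.8% over 2 KO samples and 16.2 ± 10.5% over 2 technical libraries of 1 WT sample (SD). The difference of −5.14 percentage points was smaller than either spread. An exact two-sided permutation test over the 4 libraries gave p = 0.667, where 0.333 is the smallest possible. This test takes the WT libraries as 2 samples, and with WT counted as 1 sample no test of genotype can be had, which holds for each such test below. Its sign turned when KO replicate 2 (2.47 points) or WT replicate 2 (2.26 points) was left out. With lists cut to the 9344 top-scored ETS1 peaks of each library, the genotypes no longer overlapped. The means were 2.88% in KO and 4.83% in WT, a difference of −1.95 points (exact permutation test over libraries, p = 0.333, the smallest possible). Relative to all merged regions under the same cut, the share averaged 0.129 in KO and 0.221 in WT. In the full lists, the ETS1 shares over all merged regions were 41.9% and 22.2% in KO and 26.3% and 38.4% in WT. Both KO replicate 2 and WT replicate 1, which had the shorter ETS1 lists, also gave the lower shares of WT-only regions.

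In each of the 4 ETS1 libraries the WT-only regions were less often bound than the other 35431 merged regions. With the WT libraries averaged into 1 sample, the mean was 12.8 ± 8.16% for WT-only regions and 32.7 ± 9.89% for the others (SD, n = 3, exact paired permutation test, p = 0.25, the smallest p that 3 samples allow). Against shared regions the means were 12.8% and 58%, again lower in 4 of 4 libraries. Against KO-only regions the means were 12.8 ± 8.16% and 13.7 ± 7.93% (SD, n = 3), with WT-only regions lower in 2 libraries and higher in 2 (exact paired permutation test, p = 0.75). The comparison with merged regions in general depended on width. Among regions under 300 bp, ETS1 was called in 19% and 3.42% of WT-only regions in KO and in 6.84% and 19.4% in WT. All merged regions of that width stood at 19.9% and 4.02% in KO and 6.37% and 13.9% in WT, close except in WT replicate 2. Shared regions under 300 bp stayed higher, at 51.2% and 19.4% in KO and 22.1% and 45% in WT. At 1000 bp or more, WT-only regions stood at 19.8% and 3.96% in KO and 11.9% and 30.7% in WT. All merged regions of that width stood higher, at 62.8% and 41.5% in KO and 46.8% and 61.1% in WT. At least 1 ETS1 peak in any library was present in 374 WT-only regions (38.4%), and 599 (61.6%) had none. Over all merged regions these shares were 51.6% and 48.4%. It was present in at least 1 KO library in 199 WT-only regions (20.5%), against 43.6% of all merged regions. For at least 1 WT library the count was 269 (27.6%), against 41% of all merged regions.

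ETS1 followed the H3K27ac pattern in few of these regions. An ETS1 peak in both WT and neither KO library was found in 16 of the 973 regions (1.64%), against a background of 1.01% over all merged regions. The opposite pattern was found in 4 regions (0.411%), against 0.505%. Of the 366 merged regions with the ETS1 pattern of both WT and neither KO, 16 were WT-only and 209 were shared H3K27ac regions. Best ranked among the 16 were regions in Igsf23, Klhl3, Dusp7, Gdpd5, Mical3 and Pemt, a region 15051 bp from Trio, regions in Tspan14 and Arhgef3, and a region 4677 bp from Fer1l6. Arhgef3 and Trio encode guanine nucleotide exchange factors, and Dusp7 a phosphatase of MAP kinases. The region in Igsf23, chr7:19948507-19950823, had H3K27ac fold enrichments of 4.25 and 4.38. The region in Dusp7, chr9:106370774-106373286, had 3.64 and 3.76, with a KO H3K27ac peak 1427 bp away. One listed gene, Crtam, which encodes a receptor of activated cytotoxic and CD4+ T cells, also held such a region, at a −log10 q of 0.947 and 0.777.

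CTCF peaks were found in 18.3% and 17.8% of WT-only regions in KO and in 17.1% and 19.8% in WT. The means were 18 ± 0.363% over the 2 KO samples and 18.4 ± 1.96% over the 2 technical WT libraries (SD), a difference of −0.411 points (exact two-sided permutation test over libraries, p = 1). The WT values lay on both sides of the KO values. With lists cut to the 31364 top-scored CTCF peaks of each library, the genotypes no longer overlapped. The means were 10.9% in KO and 17.2% in WT, a difference of −6.22 points (exact permutation test over libraries, p = 0.333, the smallest possible). Relative to all merged regions under the same cut, the share averaged 0.304 in KO and 0.507 in WT. In the full lists, CTCF was found in 45.7% and 43.8% of all merged regions in KO and in 34.6% and 34.6% in WT. The CTCF share of shared regions averaged 71.3% in KO and 57% in WT. The KO libraries also had the longer CTCF lists. Set relative to all merged regions of the same library, the WT-only share was 0.4 and 0.406 in KO and 0.494 and 0.573 in WT. The 2 genotypes did not overlap on this ratio (exact two-sided permutation test over libraries, p = 0.333, the smallest possible). KO-only regions ran the other way, at 0.703 and 0.691 in KO and 0.564 and 0.523 in WT. Shared regions were also higher in WT without overlap, at 1.59 and 1.6 in KO and 1.64 and 1.66 in WT. The ratio is not particular to WT-only regions. Their share itself averaged 18% in KO and 18.4% in WT, while the share over all merged regions averaged 44.8% and 34.6%.

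**Figure D3:**
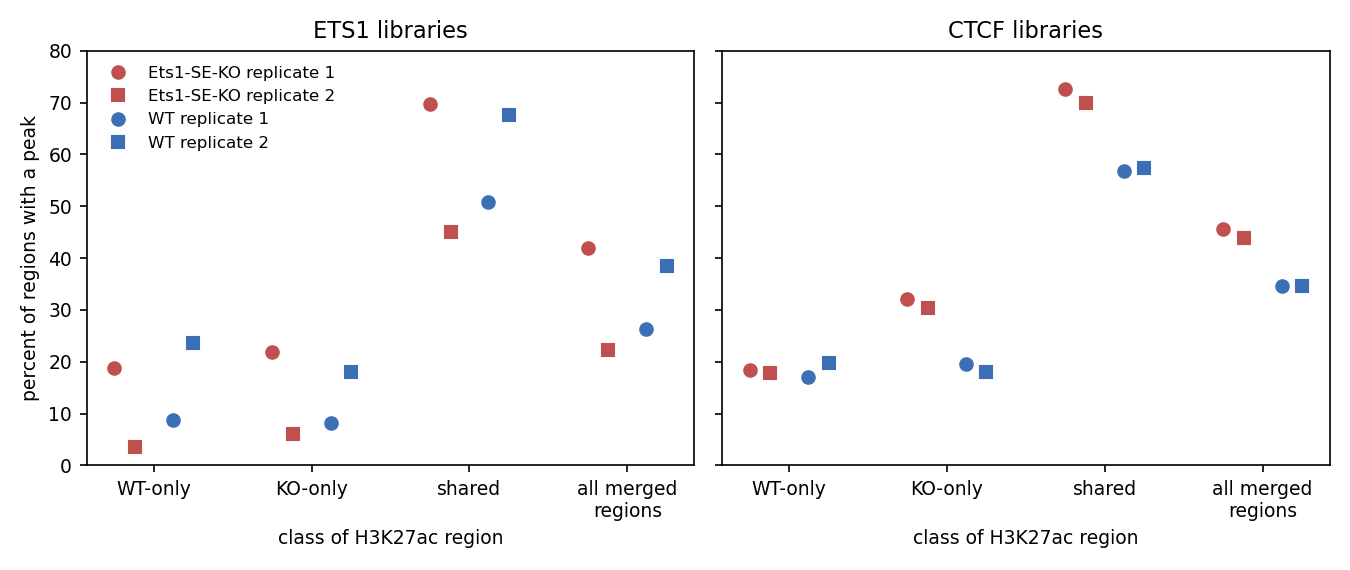
Percent of WT-only, KO-only, shared and all merged H3K27ac regions with an ETS1 peak (left) or a CTCF peak (right), 1 point per library, KO in red and WT in blue. In WT-only regions the ETS1 points lie at 3.49% and 18.7% in KO and at 8.84% and 23.6% in WT, and the CTCF points all lie between 17.1% and 19.8%.

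A CTCF peak in both WT and neither KO library was found in 15 WT-only regions (1.54%), against 0.228% of all merged regions and 0 of the 2585 KO-only regions. The opposite pattern was found in 13 WT-only regions (1.34%), against 5.38% of all merged regions and 173 KO-only regions (6.69%). The 15 regions made up 18.1% of the 83 merged regions with the first pattern. Whether the H3K27ac and CTCF libraries of a genotype came from the same culture is not stated, and its part in this overlap was not tested. The best ranked of the 15 lay in Ppard, a nuclear receptor of fatty acid metabolism, at chr17:28269130-28270938, with H3K27ac fold enrichments of 4.6 and 4.17. Others lay 10426 bp from Dusp7, in the cell cycle factor gene E2f2 and in Trappc9, Frmd4b and Nav1. Intergenic ones lay near Zfp516, Mmgt2, Fam102b and Sec22c. CTCF in all 4 libraries was found in 84 WT-only regions (8.63%), against 28.4% of all merged regions. Neither ETS1 nor CTCF was called in any library in 476 WT-only regions (48.9%), a joint count not made for the other classes. Taken singly, ETS1 was called in no library in 61.6% of WT-only and 48.4% of all merged regions. CTCF was called in no library in 69% and 49.8%.

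Occupancy varied among the WT-only regions themselves. Among the 243 best-ranked regions, ETS1 was called in 21% and 4.53% in KO and in 10.7% and 28.8% in WT. Among the 244 poorest-ranked regions it was called in 13.9% and 3.28% in KO and in 7.79% and 21.7% in WT. CTCF in the best-ranked regions stood at 23% and 20.2% in KO and 22.2% and 30% in WT, against 17.6% and 14.3% in KO and 13.5% and 14.3% in WT in the poorest-ranked ones. The best-ranked regions were higher than the poorest-ranked ones in all 8 libraries, without a steady order between: the next 243 regions by rank stood above the best-ranked ones for ETS1 in both KO libraries, at 23% and 4.94%, and for CTCF in KO replicate 2, at 22.6%. The 386 regions with no KO H3K27ac peak within 10 kb carried ETS1 in 22.8% and 4.92% in KO and in 11.7% and 29% in WT. The 147 regions with a KO peak within 1 kb carried ETS1 in 11.6% and 2.72% in KO and in 6.12% and 17% in WT. The remote regions were also narrower, with a median width of 396 bp against 525 bp. At the 51 regions over a promoter window, ETS1 was called in 45.1% and 25.5% in KO and in 27.5% and 47.1% in WT, and CTCF was called in all 4 libraries at 22 (43.1%). Over all merged regions, wherever placed, ETS1 was called in 41.9% and 22.2% in KO and in 26.3% and 38.4% in WT. CTCF was called in all 4 libraries in 28.4% of them. Occupancy at promoter windows was not counted for the other classes, so these shares cannot be set apart from those of promoters in general.

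WT-only regions lay in or within 10 kb of 848 of the 13274 protein-coding genes with a merged region, or 6.39%, while 167 regions lay in no such window. Most of these genes, 739, held a single WT-only region, 83 held 2 and 26 held 3 or more. The share of genes with a WT-only region grew with the number of merged regions in the window, at 2.26% for genes with 1 or 2, 14.4% for genes with 6 to 10 and 40.2% of the 97 genes with 21 or more. Of the 848 genes, 162 also held a KO-only region. The total H3K27ac-covered length of the window was higher in both KO libraries for 183 of the 848 genes, higher in both WT libraries for 352 and overlapping for 313. Over all genes with a region, 54% were higher in both KO and 6.37% in both WT libraries. The rule used this same contrast, so nothing is read from these counts.

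Among the 26 genes with 3 or more WT-only regions, both KO libraries were higher at 2, both WT libraries at 16, and the genotypes overlapped at 8. Adam19, which encodes a membrane metalloproteinase, was covered over 0.31 and 0.8 kb in KO and 7.7 and 6.44 kb in WT. Its 3 WT-only regions were chr11:46055870-46056354, over an annotated start of the gene, chr11:46068633-46069259 and chr11:46127166-46127727. The nearest KO peak was 14937 to 36031 bp from each, and the first and the third carried CTCF in all 4 libraries. Smad3, a mediator of TGF-beta signals, was covered over 0.796 and 1.92 kb in KO and 5.75 and 3.39 kb in WT. Tex2 was covered over 5.48 and 6.11 kb in KO and 12.8 and 15.1 kb in WT. Bcr had 1.81 and 2.42 kb in KO and 5.72 and 3.72 kb in WT. Iqsec1, which held 7 WT-only regions and 1 KO-only region, had 2.89 and 3.38 kb in KO and 9.32 and 7.03 kb in WT. These genes were picked for their WT-only regions in the same peak lists, which favours higher WT values, so the lengths are a description and carry no test.

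The other genes of the 26 were covered as follows. Fyn, a Src-family kinase next to the T cell receptor, had 22.3 and 23.4 kb in KO and 27.1 and 27.2 kb in WT. Sema4d, which encodes the T cell semaphorin CD100, had 21.4 and 23.3 kb in KO and 29.3 and 26.1 kb in WT. Spred2, an inhibitor of Ras signalling, had 10.9 and 13.7 kb in KO and 16.3 and 16.6 kb in WT. Slc2a3, the glucose transporter GLUT3, had 3.49 and 3.86 kb in KO and 5.18 and 4.98 kb in WT. Prkcb, a protein kinase C, had 0.903 and 1.72 kb in KO and 2 and 2.35 kb in WT. Eefsec, the elongation factor for selenocysteine, Mta3, Parp16, Slc35b3, Fam169b and Runx1 also lay higher in both WT libraries. Cblb, a ubiquitin ligase that restrains T cell receptor signals, ran the other way despite its 3 WT-only regions, with 25.7 and 22.4 kb in KO and 17.4 and 16.9 kb in WT, and it also held 3 KO-only regions. Kdm4b, a histone demethylase gene, had 13 and 15.3 kb in KO and 11.3 and 12.6 kb in WT. The genotypes overlapped at Arap1, Capzb, Ggta1, Med13l, Nsmce2, Rftn1, Sipa1l2 and Zmiz1.

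**Figure D4:**
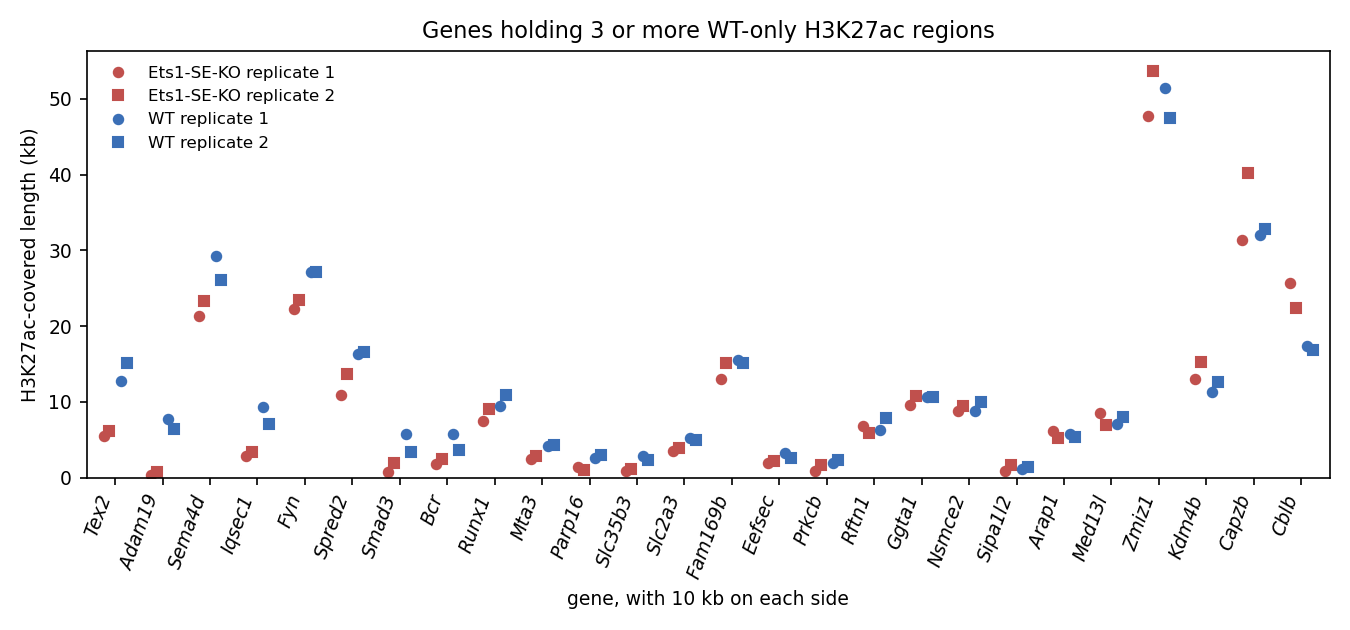
H3K27ac-covered length in kb over each of the 26 genes with 3 or more WT-only regions, with 10 kb on each side, 1 point per library, KO in red and WT in blue, ordered by the WT minus KO difference of the means. Adam19 lies at 0.31 and 0.8 kb in KO and 7.7 and 6.44 kb in WT, and Cblb at the right end is higher in KO.

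Some WT-only regions lay within 50 kb of each other. With gaps of up to 50 kb allowed, 246 WT-only regions (25.3%) fell into 107 groups of 2 or more. Of these groups, 24 held at least 3 regions and 5 held at least 4. Grouping was not counted for KO-only regions or for merged regions in general, so these counts are a description only. The largest group held 7 regions over 80863 bp of Iqsec1, at chr6:90676846-90757708. In that stretch H3K27ac covered 0.638 and 0.449 kb in KO and 5.41 and 4.52 kb in WT, and the 13 merged regions comprised the 7 WT-only ones, 1 shared and 5 of other combinations. The 7 regions were of unequal strength, with −log10 q from 0.811 to 4.7 in WT replicate 1 and from 0.737 to 4.16 in WT replicate 2. ETS1 was called in 1 and 0 of the 7 in KO and in 2 and 1 in WT, and CTCF in 0 and 0 in KO and in 0 and 1 in WT. CTCF peaks stood between them, with 5 and 5 in KO and 7 and 7 in WT over the stretch. Of the groups with 3 or more regions, those with no KO H3K27ac peak at all lay in Slc2a3, with 4 regions covering 1.55 and 1.14 kb in WT, in Runx1, with 3 regions covering 0.993 and 1.76 kb, in Nol10, with 1.18 and 0.899 kb, and in Sipa1l2, with 0.531 and 0.655 kb.

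**Figure D5:**
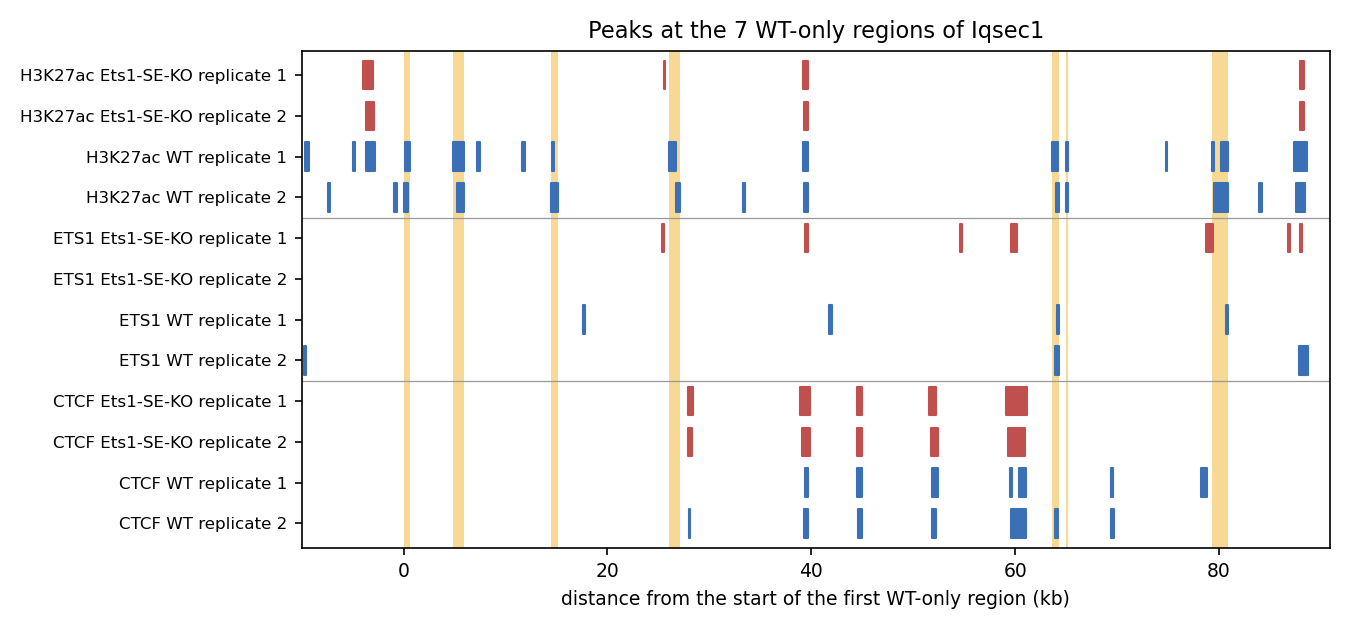
Peaks of the H3K27ac, ETS1 and CTCF libraries (rows, KO in red above WT in blue) along the largest group of WT-only regions, in Iqsec1, by distance in kb from the start of the first region. Yellow bands are the 7 WT-only regions, and the H3K27ac KO rows have no peak in any of them.

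Of 356 genes in 20 lists of T cell and control genes, 306 had a merged region and 42 of these (13.7%) had a WT-only region, against 6.39% of all genes with a region. The listed genes also held more merged regions each than genes in general, with list medians of up to 10 against 2. T cell receptor signalling genes had a WT-only region at 9 of 27 genes (33.3%), among them Fyn, Lcp2, Vav1, Nfatc2, Cblb, Dgkz, Grap2 and Dock2. Their 13 WT-only regions made up 3.85% of the 338 merged regions of that list, beside the 2.67% over all regions, and the list also held 26 KO-only regions. Vav1, an exchange factor below the receptor, was covered over 5.62 and 5.7 kb in KO and 7.37 and 8.12 kb in WT. Lcp2, which encodes the adaptor SLP-76, had 17.5 and 16.7 kb in KO and 11.5 and 11.9 kb in WT, so its WT-only region sat in a gene that was covered more in both KO libraries. Dgkz, Grap2, Dock2 and Nfatc2 were also covered more in both KO libraries.

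T cell identity genes had a WT-only region at 4 of 19 genes, Cd3e, Cd6, Lck and Zap70, and each of the 4 was covered more in both KO libraries, as were 54% of all genes with a region. Their 4 WT-only regions made up 2.38% of the 168 merged regions of the list, below the 2.67% over all regions. Cd6 had 42.5 and 39.2 kb in KO and 31.4 and 28.1 kb in WT. Lck, the kinase bound to CD4, had 12.5 and 13.2 kb in KO and 7.51 and 8.88 kb in WT. The regions at Zap70 and Cd6 had a KO peak 298 and 548 bp away. The Th1 list had a WT-only region at 4 of 24 genes with a region, Runx3, Havcr2, Ccl4 and Prf1. These 4 WT-only regions made up 3.81% of the 105 merged regions of the list, beside the 2.67% over all regions. The Th1 list also held 10 KO-only regions. Runx3, a factor of Th1 and cytotoxic cells, was covered over 21.1 and 20.8 kb in KO and 21.4 and 21.8 kb in WT. Ccl4, a chemokine gene, had 0.744 and 1.43 kb in KO and 0.828 and 1.49 kb in WT, which overlapped.

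Among other regulators, Runx1 held 4 WT-only regions and was covered over 7.43 and 9.04 kb in KO and 9.5 and 10.9 kb in WT. Etv6, the only ETS family gene of the list with a WT-only region, held 2 of them and 6 KO-only regions, with 29.3 and 28.6 kb in KO and 14.9 and 13 kb in WT. Irf2 and Nr4a1 were covered more in both KO libraries and Bach1 overlapped. Il10ra, a subunit of the IL-10 receptor, had 2 and 1.79 kb in KO and 2.92 and 2.72 kb in WT. Ski, Elmo1, Tet2, Dicer1 and Tnrc6c overlapped, Hdac4 was covered more in KO, and Kmt2c more in WT. Entpd1 had 1.54 and 1.58 kb in KO and 3.23 and 2.44 kb in WT, and Vsir, which encodes the inhibitory receptor VISTA, had 22.8 and 22.8 kb in KO and 26.3 and 26 kb in WT. No WT-only region was found at the 18 genes with a region in the list of Th2, Th17, Treg and Tfh regulators, at the 14 naive and memory genes or at the 18 housekeeping genes. These lists held 78, 178 and 55 merged regions, in that order, and 2.67% of all merged regions were WT-only.

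Of 25 genes listed as markers of other cell types and with a region, 4 had a WT-only region (16%), against 6.39% of all genes with a region. These were Mpo, Tyrobp, Tal1 and Pecam1. By region, 5 of the 73 in these 6 lists were WT-only (6.85%), against 2.67% of all merged regions. The part of other cell types in the WT-only calls was not tested. The one counted at Tyrobp, chr7:30418055-30418448, lay at Hcst and was also the one counted at Nfkbid, an inhibitor of NF-kB. The one counted at Mpo lay within 2 kb of an end of Tspoap1. Tal1 had 0 and 0 kb in KO and 0.56 and 0.312 kb in WT, and Pecam1 10.9 and 10.7 kb in KO and 11.9 and 14 kb in WT. Pecam1, listed as non-haematopoietic, was thus covered in every H3K27ac library of these Th1 cells, and it held 2 of the 5 regions. No B cell or CD8 T cell marker had a WT-only region. Fewer cells of a type and less acetylation per cell cannot be told apart in these bulk libraries.

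Over chromosomes, WT-only regions made up 1.95% to 3.88% of the merged regions of each autosome, lowest on chromosome 3 and highest on chromosome 6. On chromosome X they made up 2 of 607 regions (0.329%), whereas 61 regions there were KO-only. Chromosome X took 1.63% and 1.59% of the H3K27ac-covered length in KO and 1.49% and 1.43% in WT. In the CTCF libraries it took 1.34% and 1.61% in KO and 1.19% and 1.49% in WT, and the genotypes overlapped. The sex of the mice is not given in the labels, and its part in these counts was not tested.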

How the data were processed

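Each of the 14 CUT&RUN libraries came as a peak list without a header. The submitters' processing notes name BWA and the mouse build GRCm38. Peaks bear names in the MACS2 style, and each list belongs to 1 library. Per the file layout, the authors deposited a score of 10 times the −log10 q-value, a fold ratio of enrichment, −log10 p and −log10 q for each peak. These values are the authors' own and were used to describe and rank peaks within a list. The sources used here do not give caller options, duplicate removal or whether a control was used. Depth is unknown, so longer lists may reflect depth or background, and no interval that needs depth is given.

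Lists were merged and classified with Python 3.11.15, pandas 2.3.3, numpy 2.4.6 and scipy 1.17.1, a procedure tested on simulated data. Gene positions came from RefSeq GRCm38.p6, matched by symbol, and exons and introns were not used here. Promoter windows on chromosome 18 were not used here. ETS1 and CTCF shares were compared over libraries by exact permutation tests. Covered length is the sequence under peaks. The members, gene lists and comparisons were chosen with earlier results of these data known. Named were the 20 regions best ranked in their weaker WT library, the 10 best ranked at gene ends, the 10 best ranked with ETS1 and the 10 with CTCF in both WT and neither KO library, the 10 widest, genes with 3 or more, and listed genes. The most remote region, Tspan9's covered length, the promoter sequence of Havcr2, the ratio to all merged regions and the paired comparison of WT-only with other regions were chosen after their values were seen. Some listed genes are not reported here.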

Additional observations from a re-analysis of the deposited data

How the results depend on the processing

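The number of WT-only regions depended on the threshold: 52 at −log10 q of 5 or more in every list and 0 when only the WT lists were so restricted, against 973. With 24573 top-scored peaks per library it was 1280, including 965 (99.2%) of the 973, while KO-only regions fell to 1718. It was 826 without regions that had a KO peak within 1 kb, and 965 with peaks closer than 500 bp merged. Leaving out each library in turn gave 1474 to 3052 regions, because fewer lists then had to lack or share a peak. The KO minus WT difference in the ETS1 share ranged from −12.7 to 2.47 points when each library was left out, and was −4.73 points with an overlap of 100 bp and −1.95 points with equal ETS1 list lengths (exact permutation p = 0.333 over libraries, the smallest possible). That in the CTCF share ranged from −1.8 to 0.976 points when each library was left out, and was 0.469 points in regions from equal numbers of H3K27ac peaks. With equal CTCF list lengths it was −6.22 points (exact permutation p = 0.333, the smallest possible). The cause of these changes was not tested. The share at gene ends was 24.7% with a window of 5 kb, 13.7% by any base and 13.4% with equal numbers of peaks. Listed genes with a WT-only region numbered 68 with flanks of 50 kb, 37 in gene bodies and 50 with equal numbers of peaks. The ratio to all merged regions, chosen after seeing the data, kept its sign for both antibodies when any library was left out. In the full lists the ETS1 ratio was 0.446 and 0.157 in KO and 0.336 and 0.616 in WT. The genotypes thus overlapped on it (exact two-sided permutation test over libraries, p = 0.667). Its difference of −0.174 shrank to −0.0295 without KO replicate 2 and to −0.0344 without WT replicate 2. No paired analysis was possible because the WT numbers are technical replicates and the KO numbers are biological ones, so equal numbers do not tie samples together.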
